A study of Homo sapiens with 2 samples.

Results

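Collagen chain genes were the 44 protein-coding genes of the deposited table whose symbol has the form COL, a type number, A and a chain number, out of 38637 genes listed. They were followed in poly(A)-selected RNA-seq of H1299, an established human lung cancer cell line whose genotype is labelled wild type. One library came from untreated cells (title ending nc, treatment given as none) and 1 from cells with knockdown of PHF12, a PHD finger protein known from Sin3 corepressor complexes with histone deacetylases; the series asks how PHF12 acts on signalling in this cancer. Both groups are the same cell line and carry the same genotype label. Neither the knockdown oligonucleotide's sequence nor any oligonucleotide in the control was given in the sources used here. With 1 library per group there is no replicate check and no test, so the values describe 2 libraries and their 95% intervals cover counting error only.

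Collagens are extracellular matrix proteins built from 3 alpha chains that wind into a helix. Each type has its own chains, some types need chains from different genes in 1 molecule, and chains that lack a partner are often degraded inside the cell. Fibrillar collagens form the fibres of stroma and are mainly made by fibroblasts, type IV forms the network of basement membranes, type VI forms beaded filaments near cells, transmembrane collagens span the cell surface, and multiplexins sit in basement membranes.

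H1299 expressed few collagen chains, and 3 genes made up most of the signal. Levels of different genes are compared in TPM (counts divided by the listed gene length and scaled to a sum of 1000000 per library). A mean of at least 1 TPM over both libraries was reached by 12 of the 44 genes (27.3%), beside 63.8% of all protein-coding genes. Of the 12, 3 were above 10 TPM (COL6A2, COL6A1 and COL18A1) and 9 lay between 1 and 10 TPM. The 3 together held 82.8% of the summed collagen TPM in the control and 78.5% after knockdown. A further 6 genes had no count in either library (COL6A5, COL6A6, COL9A1, COL20A1, COL22A1 and COL28A1). For these a floor set at 3 counts lay at 0.0178 to 0.0591 TPM depending on gene length.

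**Figure D1:**
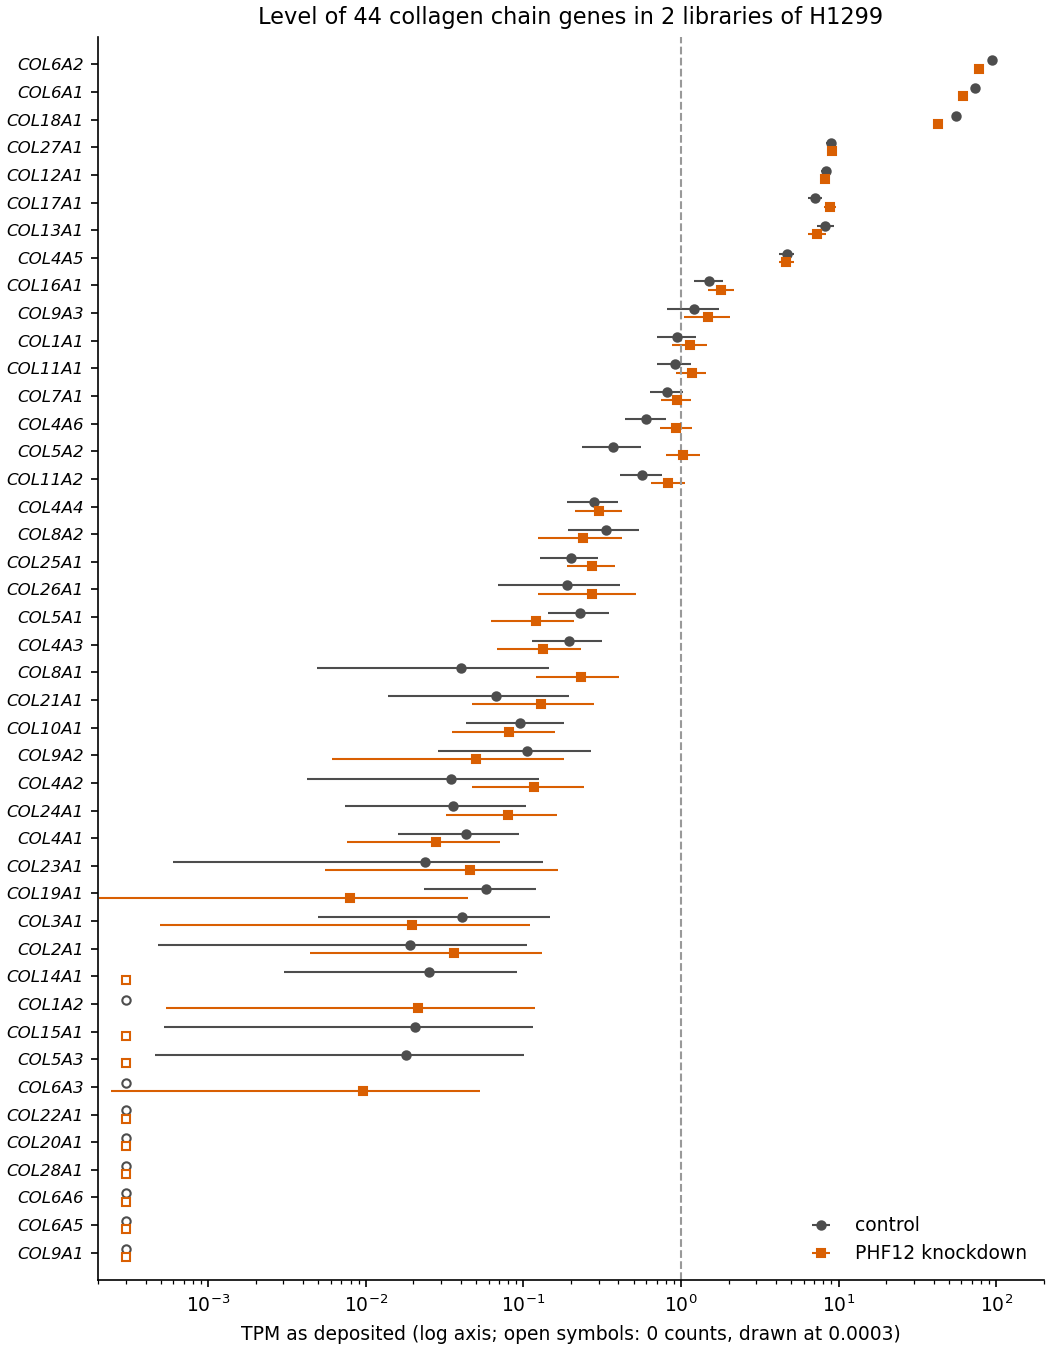
Level of each of the 44 collagen chain genes in TPM as deposited (log axis) in the control library (grey circles) and the PHF12 knockdown library (orange squares), with 95% counting intervals, open symbols at the left edge for 0 counts and a dashed line at 1 TPM. COL6A2, COL6A1 and COL18A1 lie above 10 TPM in both libraries and most other genes lie under 1 TPM.

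The labels were checked before these levels were read. PHF12 had 947 counts against 756 after knockdown, which is 0.753 times the control level after scaling (0.683 to 0.829). Of the 14559 genes tested further below, 9.41% were at least 20% lower and 20.9% had a counting interval wholly on the lower side. A drop of this size was thus not particular to PHF12. The keratin genes KRT8 and KRT18 were abundant (1147 and 2189 TPM in the control library), while the epithelial cadherin gene CDH1 and the surfactant gene SFTPC had 0 counts in both libraries, so of the epithelial markers only keratins were abundant. Of 9 fibroblast markers, THY1, LUM, PDPN and DPT had 0 counts in both, 2 (PDGFRB and ACTA2) reached 1 CPM on average (counts scaled to a library of 1000000), and the summed level was 7.48 TPM in the control and 10.03 TPM after knockdown, most of it ACTA2 at 6.84 and 9.37 TPM. Of 6 endothelial markers 3 reached 1 CPM, with sums of 3.02 and 2.48 TPM. Leukocyte markers PTPRC, CD3E and MS4A1 had 0 counts and nearly all of that list's sum was the lysosomal gene CD68, and the 5 neuroendocrine markers summed to 3.59 and 3.07 TPM.

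Type VI collagen gave the highest levels and lacked a chain. COL6A2, on chromosome 21 from 46098071 to 46132849 (hg38, plus strand), stood at 93.9 TPM in the control (91.0 to 96.9) and 77.4 TPM in the knockdown library (74.8 to 80.1). COL6A1, on the same strand from 45981770 to 46005048, stood at 73.1 TPM (70.4 to 75.9) and 61.3 TPM (58.8 to 63.8). COL6A3 encodes the large chain that joins these partners in the common form of type VI. It had no count in the control and 1 count after knockdown. Set against a floor of 3 counts for COL6A3 in the control library, COL6A2 was 3151-fold higher per length and COL6A1 2452-fold higher. The upper counting limit of COL6A3 there, 0.0367 TPM, lies above that floor of 0.0298 TPM, so these folds are not strict lower bounds. In the knockdown library, on 1 COL6A3 count, the ratios were 8118 (1456 to 320738) and 6423 (1152 to 253816). COL6A5 and COL6A6, whose products can take the place of the third chain, had no count at all.

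COL18A1 was the next gene in level. It encodes collagen XVIII, a multiplexin of basement membranes that carries heparan sulphate chains and whose end fragment is endostatin, and lies on chromosome 21 from 45405165 to 45513720. It stood at 55.7 TPM in the control (53.8 to 57.6) and 42.6 TPM in the knockdown library (41.0 to 44.3). The other multiplexin, COL15A1, had 1 and 0 counts. The order COL6A2, COL6A1, COL18A1 was the same in both libraries and their counting intervals did not overlap within a library.

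The highest genes between 1 and 10 TPM came from 3 classes: fibrillar, transmembrane and FACIT collagens, the last being chains with an interrupted helix that sit on fibre surfaces. COL27A1, a fibrillar chain of cartilage, stood at 8.97 TPM in the control and 9.07 TPM in the knockdown library. COL12A1, a FACIT chain of dense connective tissue, stood at 8.29 and 8.15 TPM. COL13A1, a transmembrane collagen of cell adhesion sites, stood at 8.23 and 7.30 TPM. Among these, order could not be read, since the control intervals of COL27A1, COL12A1 and COL13A1 overlapped. COL17A1, the transmembrane collagen of hemidesmosomes, stood at 7.07 TPM in the control (6.36 to 7.85) and 8.81 TPM in the knockdown library (8.02 to 9.65). COL4A5 followed at 4.68 and 4.66 TPM, and COL16A1, COL9A3, COL1A1 and COL11A1 lay from 0.910 to 1.80 TPM over both libraries.

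The chains of stromal fibres were low or nearly absent. COL1A1, the main chain of type I collagen, was just past 1 TPM at 50 and 63 counts, and its partner COL1A2 had 0 and 1. COL3A1 had 2 and 1 counts, the cartilage chain COL2A1 had 1 and 2, and COL24A1 had 3 and 7. COL5A1, which with COL5A2 forms the type V molecule that nucleates type I fibres, had 22 and 12 counts. COL10A1 of hypertrophic cartilage had 9 and 8 counts, but the whole gene lies inside NT5DC1 on the other strand, which had 1698 and 1918 counts. The network chains COL8A1 and COL8A2 had 2 and 16 counts in the control and 12 each in the knockdown library. Of the 10 FACIT genes, 7 had at most 20 counts over both libraries.

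COL4A5 was the only basement membrane chain of type IV at 1 TPM or more. The 6 type IV genes lie as 3 head-to-head pairs, in which the starts of 2 genes on opposite strands are separated by a short gap. COL4A1 and COL4A2, the ubiquitous pair, with 126 bases between the genes, had 6 and 2 control counts and 4 and 7 knockdown counts, so the usual basement membrane chains were at most 0.117 TPM. COL4A3 and COL4A4, with 106 bases between, stood at 0.195 and 0.280 TPM in the control and 0.132 and 0.303 TPM in the knockdown library. COL4A5 and COL4A6, with 344 bases between them on the X chromosome, stood at 4.68 and 0.601 TPM in the control and 4.66 and 0.935 TPM in the knockdown library. Per length, COL4A5 was 7.80 times COL4A6 in the control (5.69 to 10.9) and 4.98 times in the knockdown library (3.85 to 6.52), intervals that overlap.

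None of 12 chain sets written out for types I to VI, VIII, IX and XI, alternative sets of types IV and V included, had every chain at a mean of 1 TPM. Types I, IX and XI each had 1 chain at that level (COL1A1, COL9A3 and COL11A1), and COL4A5 stood alone in both of its type IV molecules. Type VI had 2 of 3. The expressed chains included some known to form trimers of 1 gene product, which need no partner gene, such as COL12A1, COL13A1, COL16A1, COL17A1, COL18A1 and COL27A1.

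**Figure D2:**
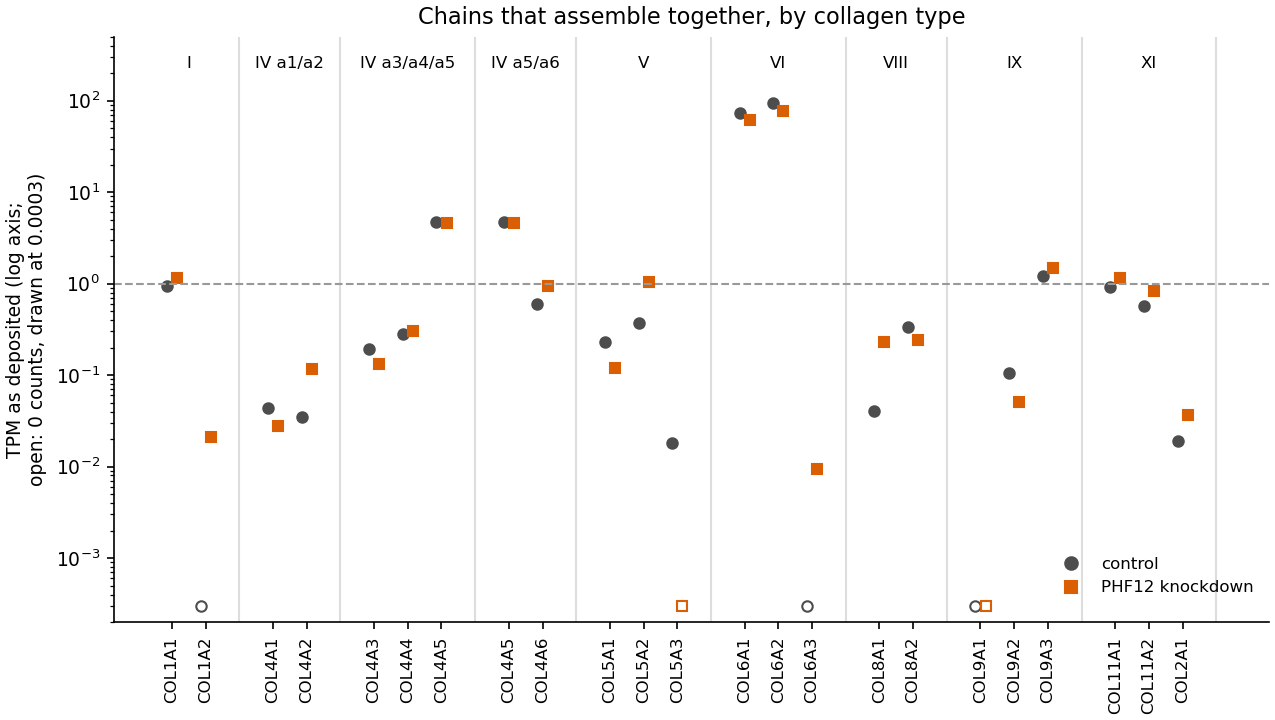
TPM as deposited (log axis) of chains that assemble together, grouped by collagen type, in the control (grey circles) and knockdown library (orange squares); open symbols at the bottom mark 0 counts and the dashed line is 1 TPM. COL6A1 and COL6A2 stand above 60 TPM beside an absent COL6A3, and in each type shown at least 1 chain lies under 1 TPM.

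Sequences upstream of 5 genes are shown because they contrast the levels above: abundant genes that were lower together in the knockdown library (COL6A2 and COL18A1), expressed genes with few CpG pairs (COL17A1 and COL4A5) and the CpG-rich stretch between the near-silent COL4A1 and COL4A2. They are RefSeq sequences of GRCh38.p14, 5′ to 3′ on the gene's strand, the 250 bases before the start, or for COL4A2 the 126 bases that separate it from COL4A1. Capitals mark the GC box GGGCGG, known as a site of Sp-family factors and reading CCGCCC when on the other strand, and the TATA box TATAAA, each searched on both strands, overlapping copies counted once. The RefSeq start of COL6A2 lies 41 bases inside the gene as the authors' table lists it.
COL6A2, chr21:46097862-46098111, plus strand: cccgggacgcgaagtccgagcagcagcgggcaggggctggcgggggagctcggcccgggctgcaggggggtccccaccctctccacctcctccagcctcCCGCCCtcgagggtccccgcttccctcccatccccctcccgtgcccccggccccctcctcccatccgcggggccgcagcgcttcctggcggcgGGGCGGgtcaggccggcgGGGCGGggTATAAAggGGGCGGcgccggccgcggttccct
COL18A1, chr21:45404915-45405164, plus strand: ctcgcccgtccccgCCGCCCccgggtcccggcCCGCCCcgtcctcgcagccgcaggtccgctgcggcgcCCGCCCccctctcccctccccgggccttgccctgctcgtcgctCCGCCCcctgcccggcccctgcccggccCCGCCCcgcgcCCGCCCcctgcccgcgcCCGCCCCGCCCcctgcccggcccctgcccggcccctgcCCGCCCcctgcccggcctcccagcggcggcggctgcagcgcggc
COL17A1, chr10:104085881-104086130, minus strand: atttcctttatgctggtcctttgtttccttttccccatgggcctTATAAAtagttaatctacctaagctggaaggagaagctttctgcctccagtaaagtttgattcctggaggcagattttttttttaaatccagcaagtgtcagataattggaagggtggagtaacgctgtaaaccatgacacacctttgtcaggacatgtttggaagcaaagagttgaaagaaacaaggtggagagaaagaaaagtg
COL4A5, chrX:108439588-108439837, plus strand: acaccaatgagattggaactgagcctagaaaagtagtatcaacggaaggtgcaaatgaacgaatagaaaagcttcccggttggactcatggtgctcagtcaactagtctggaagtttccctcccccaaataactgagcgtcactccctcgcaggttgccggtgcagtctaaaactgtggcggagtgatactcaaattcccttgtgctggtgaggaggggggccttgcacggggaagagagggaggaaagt
COL4A2, chr13:110307158-110307283, plus strand: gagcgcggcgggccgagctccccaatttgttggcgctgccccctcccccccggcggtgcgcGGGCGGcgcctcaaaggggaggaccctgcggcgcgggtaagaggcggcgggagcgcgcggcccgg

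The stretch before COL18A1 held 8 GC boxes and 37 CpG pairs, and that before COL6A2 held 4 GC boxes, 28 CpG pairs and a TATA box. The COL17A1 stretch held 1 CpG pair and a TATA box, and the COL4A5 stretch 8 CpG pairs and neither motif. The TATA match of COL6A2 lies near the RefSeq start, and that of COL17A1 near the far end of its stretch, away from the start. Between COL4A1 and COL4A2 lay 20 CpG pairs and 1 GC box. Of the collagen genes, 32 matched the RefSeq promoter table, and 18 of these had a start within 100 bases of the one the authors' table lists. The median number of CpG pairs in the 250 bases was 16 for the 9 matched genes of at least 1 TPM and 19 for the 23 under it. Over matched protein-coding genes the medians were 21 for 10091 genes of at least 1 TPM and 5 for 5127 under it. A GC box stood in 18 of the 32 collagen stretches (56.3%) and in 56.5% of matched protein-coding genes, so the shares were alike, beside 42.6% of all 35116 promoters of that length. A TATA box stood in 5 (15.6%), against 9.30% of protein-coding genes and 10.7% of all promoters. A match to these letters is a description of sequence and shows no binding.

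The counts assigned to collagen genes went from 13212 in the control to 11971 in the knockdown library, a knockdown minus control difference of −1241. Library totals were 24740581 and 26084594 counts. Collagen genes took 0.0534% of all counts in the control (exact binomial interval 0.0525 to 0.0543) and 0.0459% in the knockdown library (0.0451 to 0.0467), a ratio of 0.859 (0.838 to 0.881). The 3 abundant genes were lower and the rest were not. COL6A1, COL6A2 and COL18A1 together went from 10038 to 8455 counts, while the other 41 genes went from 3174 to 3516, a scaled fold of 1.04 (0.995 to 1.10). In bulk samples fewer cells of a type and less RNA per cell cannot be told apart.

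Ratios for single genes were computed for the 18 collagen genes past 1 CPM on average, as the log2 of knockdown over control on library sizes scaled by trimmed mean of M-values, with no pseudocount. By a size rule of at least 1.5-fold, 2 of the 18 were higher (COL5A2 and COL4A6) and none lower. Over all 14559 genes past the same filter, 2.16% were higher and 2.29% lower by that rule. Both collagen genes that met it had under 5 CPM, where 6.9% of 2784 genes were at least 1.5-fold higher and 7.9% lower. Of the 8 collagen genes of at least 5 CPM none met it in either direction, where the shares over 11775 genes were 1.04% higher and 0.96% lower. At a milder mark, 5 of the 18 were at least 25% higher, adding COL11A1, COL11A2 and COL25A1, where 8.28% of all genes were. All 5 lay under 5 CPM, and no 25% share for genes at that level is given, so 8.28% is not a matched comparison. COL18A1 alone was at least 20% lower, where 9.41% of all genes were. The log2 ratio was above 0 for 11 of the 18, where 48.4% of all genes were. The median log2 ratio was 0.21 over the 18 genes and −0.01 over all genes. COL5A2 and COL25A1, at 0.93 and 0.97 CPM in the control, passed the filter only through the knockdown library. Without them, a choice made after seeing the data, the median was 0.13 over 16 genes and COL4A6 alone met the 1.5-fold rule. Each of the 10 collagen genes between 1 and 5 CPM had a log2 ratio above 0, COL5A2 and COL25A1 included. The median of the 10 was 0.30, where the 2784 genes at that level had −0.02. No share above 0 is given for those 2784 genes, and no median of the 10 without COL5A2 and COL25A1. Among these 10, all counting intervals but those of COL5A2 and COL4A6 held 0. The nearest genes under the filter, COL5A1, COL4A3 and COL8A2, had log2 ratios of −0.96, −0.59 and −0.50 on at most 22 counts, so the shared sign did not extend to them. Whether the low genes share a direction beyond this pair of libraries was not tested. For the 8 genes of at least 5 CPM the median was −0.12, where all genes at that level had −0.01. Of these 8, COL17A1 alone had a ratio above 0, where 48.6% did.

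**Figure D3:**
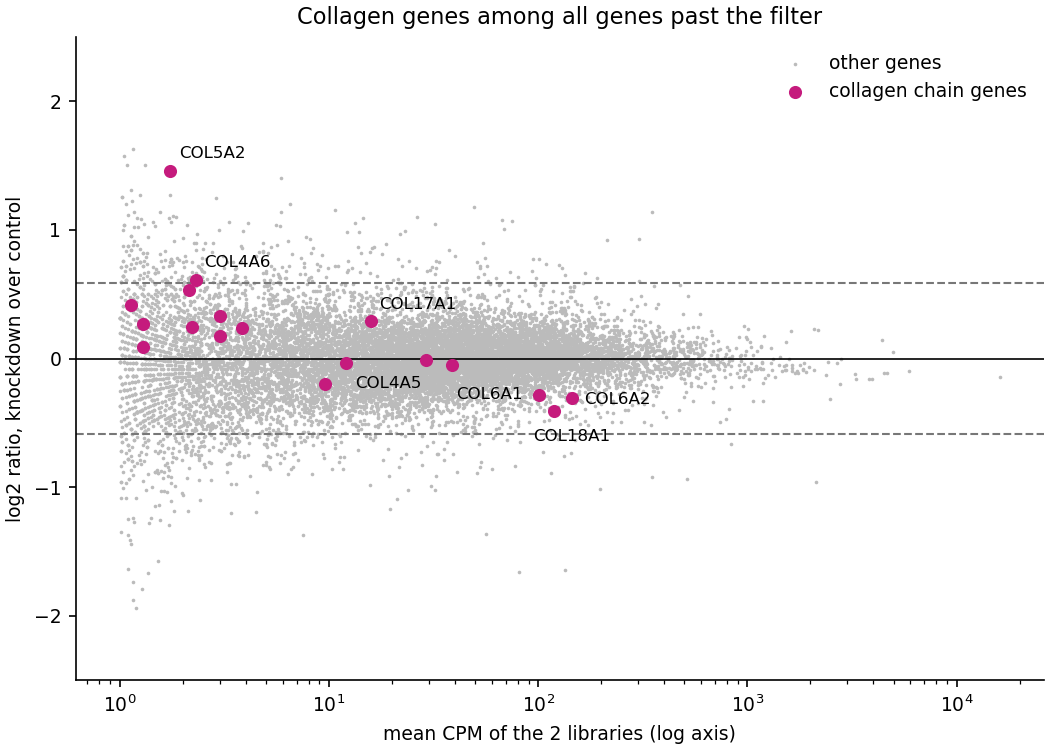
Log2 ratio of knockdown over control library against mean CPM (log axis) for every gene past the filter (grey) and the collagen genes among them (magenta), with dashed lines at 1.5-fold. The 3 most abundant collagen genes lie below 0, and all 18 but COL5A2 and COL4A6 are inside the dashed lines; genes just under the filter are not drawn.

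The 3 abundant genes were lower in the knockdown library by less than 1.5-fold. COL18A1 went from 3353 to 2674 counts, a fold of 0.752 and a log2 ratio of −0.41 (−0.48 to −0.34). COL6A2 went from 3953 to 3395 counts, a fold of 0.810 and a log2 ratio of −0.30 (−0.37 to −0.24). COL6A1 went from 2732 to 2386 counts, a fold of 0.824 and a log2 ratio of −0.28 (−0.36 to −0.20). These were the only 3 of the 18 whose counting interval lay below 0, where 20.9% of all genes tested did, and 23.6% of those at 5 CPM or more. Epithelial keratins lay lower by a like amount in the same library, KRT8 at −0.40 (−0.42 to −0.37), KRT18 at −0.33 (−0.35 to −0.31) and KRT7 at −0.53 (−1.05 to −0.01), which are the 3 of 8 epithelial markers past the filter, and that list's summed level was 3342 TPM in the control against 2664 TPM. CD68, the 1 leukocyte marker past the filter, was higher at 0.29 (0.23 to 0.35). The part of these markers in the collagen ratios was not tested. COL6A2 stood at 1.29 times COL6A1 per length in the control (1.22 to 1.35) and 1.26 times in the knockdown library (1.199 to 1.332), intervals that overlap. The listed length was 1.37 times the longest coding transcript of GENCODE release 29 for COL6A2 and 0.992 times for COL6A1. On those transcript lengths the mean levels were 117 and 66.6 TPM, where the deposited means were 85.7 and 67.2 TPM. These intervals thus leave out the choice of length.

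COL18A1 shares 11204 bases of its span with SLC19A1, the reduced folate carrier on the other strand, which was also lower, going from 1253 to 1049 counts, with a log2 ratio of −0.34 (−0.46 to −0.22). The strand setting of the counting was not given in the sources used here, so reads in the shared stretch cannot be told apart. Of the 18 genes past the filter, 10 share part of their span with another listed gene, but COL6A1 and COL6A2 do not. Besides the coding genes named here, all such partners were noncoding genes of at most 23 counts in a library, led by MFF-DT at COL4A3, LOC107984242 at COL13A1 and LL21NC02-21A1.1 at COL18A1. Around these 3 genes on chromosome 21, to 250 kb on either side, 13 other genes passed the filter, a window chosen after the values were seen. Of them 5 had a ratio below 0, SLC19A1 alone had a counting interval below 0, and 4 had one above 0 (POFUT2, LINC00205, FTCD and MCM3AP), with a median of 0.08.

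COL5A2 had the highest ratio of the 18. It encodes the second chain of type V collagen, lies on chromosome 2 from 189031898 to 189225301, and went from 23 to 67 counts, or 0.370 to 1.04 TPM. The fold was 2.75 (1.69 to 4.62) and the log2 ratio 1.46 (0.76 to 2.21). It was the only collagen gene past the filter at least 2-fold higher, as 0.33% of all genes tested were, and none was 2-fold lower, as 0.316% were. Those shares are over genes of every level, and COL5A2 passed the filter only through the knockdown library, where it was higher. Its trimer partner COL5A1, under the filter, had 22 and 12 counts, so COL5A2 had more counts than COL5A1 in both libraries, by 1 count in the control. COL3A1, its neighbour 19151 bases away on the other strand, had 2 and 1 counts.

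COL4A6 went from 45 to 73 counts, a fold of 1.53 (1.04 to 2.27) and a log2 ratio of 0.61 (0.06 to 1.18). With 0.5 CPM added to both libraries its log2 ratio was 0.50, under the 1.5-fold mark. COL4A5, which starts on the other strand 344 bases away, was at 302 and 313 counts, with a log2 ratio of −0.03 (−0.27 to 0.20). COL17A1 went from 353 to 458 counts, a log2 ratio of 0.29 (0.09 to 0.50), and was the third gene of the 18 whose counting interval lay above 0, where 20.3% of all genes tested did, and 23.5% of those at 5 CPM or more.

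For the other 12 genes the counting interval held 0. The fibrillar chains COL11A2, COL11A1 and COL1A1 had log2 ratios of 0.53, 0.33 and 0.25 on 43 to 88 counts per library. COL25A1, a transmembrane collagen found in neurons and amyloid plaques, had 24 and 34 counts, at 0.42, and COL9A3, which ends 155 bases inside TCFL5 on the other strand, had 29 and 37 counts and a ratio of 0.27. COL16A1, at 87 and 109 counts, had 0.24, COL7A1, the chain of the anchoring fibrils of skin, at 70 and 84 counts, had 0.18, and COL4A4, at 31 and 35 counts and overlapping RHBDD1 on the other strand, had 0.09. COL27A1, at 723 and 762 counts, had a ratio of −0.01 that turned to 0.01 with DESeq2 size factors, to 0.00 with scaling on protein-coding genes and to 0.02 with the deposited TPM. COL12A1, at 971 and 995 counts, had −0.05 (−0.18 to 0.08), which bounds a difference in this pair of libraries to within those limits of counting error. COL13A1, at 252 and 233 counts, had −0.20 (−0.46 to 0.06).

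**Figure D4:**
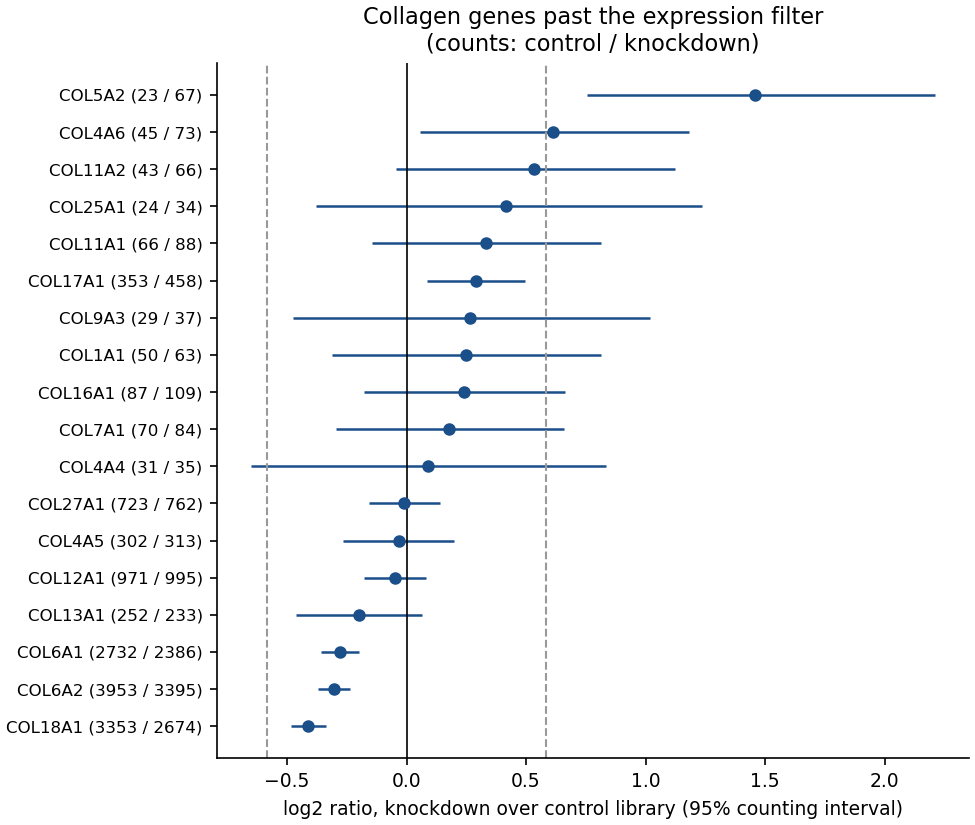
Log2 ratio of knockdown over control library with 95% counting interval for the 18 collagen genes past the filter, labelled with their counts in the control and knockdown library; dashed lines mark 1.5-fold. The intervals of COL18A1, COL6A2 and COL6A1 lie wholly below 0 and those of COL5A2, COL4A6 and COL17A1 wholly above it.

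The 26 genes under the filter had at most 22 counts in a library, and 20 of them had at least 1 count. COL8A1, a network chain of vessel walls, had 2 control counts and 12 knockdown counts, a ratio of 5.66 with a counting interval from 1.26 to 52.1. COL19A1 had 7 and 1 counts, COL4A3 had 17 and 12, COL26A1 had 6 and 9, COL21A1 had 3 and 6, COL9A2 had 4 and 2, COL23A1 had 1 and 2, COL14A1 had 2 and 0, and COL5A3 had 1 and 0. By raw count over all 44 genes, 23 were higher in the knockdown library, 15 lower and 6 equal at 0. The knockdown library was the deeper of the 2. After scaling to the control, COL4A5, COL12A1 and COL27A1, higher by raw count, were lower, with differences of −6.84, −32.7 and −4.43 counts. No such raw split over all listed genes is given here, so it is a description only.

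The machinery that modifies, folds and cross-links collagen was abundant beside these few chains. All 14 hydroxylation and glycosylation enzymes and all 13 folding and export factors passed 1 CPM. Within the first group 1 gene was at least 1.5-fold higher and none lower. It was P4HA3, a prolyl hydroxylase subunit under the level set for naming, at 26 and 43 counts with a log2 ratio of 0.64 (−0.09 to 1.40). Between 1 and 5 CPM, where P4HA3 lay, 6.9% of 2784 genes were higher by that rule. The largest ratios at 5 CPM or more were P4HB, protein disulphide isomerase and the beta subunit of prolyl hydroxylase, at 416 and 538 TPM and a log2 ratio of 0.35 (0.31 to 0.38), and the collagen galactosyltransferases COLGALT2 at −0.34 (−0.62 to −0.06) and COLGALT1 at −0.30 (−0.38 to −0.22). The median of the group was 0.00.

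Among folding and export factors none was 1.5-fold away and the median was 0.08. The counting interval lay above 0 for 6 of 13 and below for 1, where 20.3% and 20.9% of all genes tested did. At 5 CPM or more, where all 13 lay, those shares were 23.5% and 23.6%. CREB3L1, a transcription factor of the endoplasmic reticulum known to activate collagen genes, went from 708 to 988 counts, at 0.40 (0.26 to 0.54). FKBP14, a prolyl isomerase, had 0.38 (0.19 to 0.58) and the COPII coat gene SEC13 had 0.31 (0.23 to 0.40). SERPINH1, the collagen chaperone HSP47, is named outside the rule of the largest ratios. It stood at 158 and 159 TPM with a ratio of −0.01 (−0.07 to 0.06).

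Of 15 processing and cross-linking enzymes 11 passed, with a median of −0.07 and none 1.5-fold away. Of their counting intervals 4 lay below 0 and 1 above, where 20.9% and 20.3% of all genes tested lay so. At 5 CPM or more, where all 11 but LOXL4 lay, those shares were 23.6% and 23.5%. The lysyl oxidases, which cross-link collagen and elastin, gave the largest ratios. LOXL1 went from 620 to 441 counts, at −0.58 (−0.76 to −0.40), LOX from 454 to 397, at −0.28 (−0.48 to −0.08), and LOXL2 from 5512 to 4922, at −0.25 (−0.30 to −0.19). Of 12 collagen receptors 8 passed, with a median of 0.01. DDR2, a receptor tyrosine kinase for fibrillar collagen that lay under the level set for naming, was the 1 gene at least 1.5-fold lower, at 84 and 58 counts and −0.62 (−1.13 to −0.12). Between 1 and 5 CPM, where DDR2 lay, 7.9% of 2784 genes were lower by that rule. The integrin subunits ITGA1, ITGA2 and ITGB1 had log2 ratios of 0.25, 0.12 and 0.12.

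Of 13 collagen-degrading proteases and their inhibitors 10 passed, none 1.5-fold away, with a median of −0.01. MMP16, a membrane-bound metalloprotease, had 0.29 (0.10 to 0.49), the interstitial collagenase MMP1 had −0.20 (−0.40 to −0.01) and the inhibitor TIMP2 had −0.20 (−0.25 to −0.15). Stromal matrix partners had 8 of 14 past the filter, with a median of −0.06 and none 1.5-fold away. The matricellular gene CCN2 had 0.29 (0.22 to 0.35), the thrombospondin THBS1 had −0.26 (−0.38 to −0.14) and fibronectin FN1 had −0.10 (−0.23 to 0.02).

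Basement membrane partners were expressed broadly although COL4A1 and COL4A2 were not. Of 15 genes 14 passed the filter, LAMA1 being the exception, and laminin chains LAMC1, LAMB1 and LAMB3 stood at 78.6, 73.2 and 127 TPM in the control library. None was 1.5-fold away, but 13 of the 14 had a log2 ratio below 0, where 51.6% of all genes tested did, with a median of −0.10. The counting interval lay below 0 for 6 and above for none, where 20.9% and 20.3% of all genes tested did. At 5 CPM or more, where all 14 but NID2 lay, those interval shares were 23.6% and 23.5%. At 5 CPM or more the largest ratios were LAMC3 at −0.58 (−0.92 to −0.23), the laminin alpha chain LAMA5 at −0.41 (−0.49 to −0.33) and the heparan sulphate proteoglycan perlecan, HSPG2, at −0.33 (−0.39 to −0.26). AGRN, or agrin, which with perlecan and collagen XVIII carries the heparan sulphate of basement membranes, had 5648 and 5341 counts and −0.17 (−0.22 to −0.11). AGRN is named outside the rule of the largest ratios, and LAMB3 lay further from 0 at −0.21 (−0.27 to −0.16). NID2, or nidogen 2, lay under 5 CPM at 106 and 78 counts and −0.53 (−0.97 to −0.09). COL18A1, at −0.41, had the same ratio as LAMA5 to that precision.

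**Figure D5:**
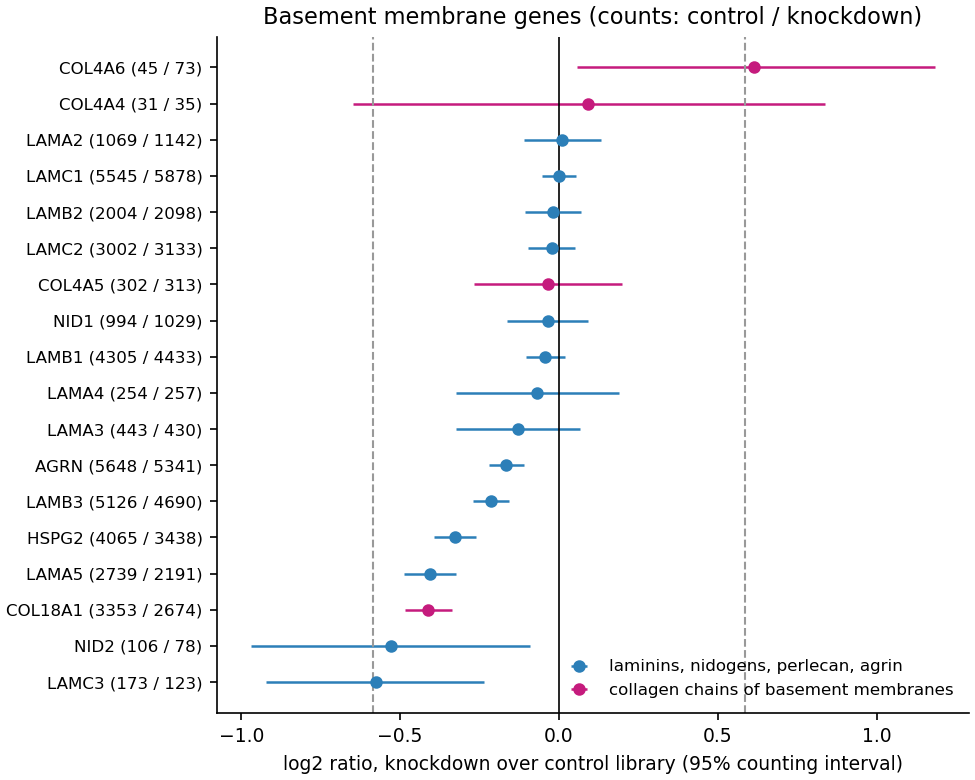
Log2 ratio of knockdown over control library with 95% counting interval for the 14 basement membrane partners past the filter (blue) and for COL18A1 and the type IV chains past it (magenta), with counts in both libraries; dashed lines mark 1.5-fold. COL18A1 lies with LAMA5 and HSPG2 below 0, while COL4A5 lies near 0 and COL4A6 above it.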

How the data were processed

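HISAT2, HTSeq and the hg38 build are named in the submitters' processing notes; the gene annotation, tool versions and strand setting were not given in the sources used here. Deposited by the authors were raw counts per gene and TPM values, in 1 table whose columns were matched to the samples by title. Per the file headers a gene length is also listed, and the deposited TPM equal counts over that length, scaled to 1000000, to within 1e-06. For the 18 collagen genes tested that length was 0.883 to 1.69 times the longest coding transcript of GENCODE release 29, which bears on levels between genes and not on ratios between libraries.

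Library scaling used edgeR 4.0.16 (trimmed mean of M-values, factors 0.997 and 1.00), with DESeq2 1.42.0 size factors as an alternative, in R 4.3.3. Intervals of ratios are exact conditional Clopper-Pearson intervals for 2 Poisson counts, those of levels exact Poisson intervals, from scipy 1.17.1 in Python 3.11.15. Neither edgeR nor DESeq2 was used for a test, since 1 library per group leaves no spread to estimate. Intervals and code were tested on simulated counts. Reads carry no molecular identifiers, so intervals cover counting error only.

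All collagen genes past 1 CPM are named, with PHF12 and the genes overlapping or neighbouring a collagen gene. So are the 3 largest absolute ratios at 5 CPM or more in each list other than the cell type markers. Genes named outside this rule are marked, given for levels only, or are cell type markers. Collagen genes and lists were chosen with earlier results of these data known.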

Additional observations from a re-analysis of the deposited data

How the results depend on the processing

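With 1 library per group no library could be left out. No paired analysis was possible because the groups share no replicate pair beyond 1 library each. The number of collagen genes at least 1.5-fold higher, 2 in the analysis above, was 1 with a pseudocount of 0.5 CPM, 1 with 1 CPM, 1 without genes that overlap another listed gene (COL5A2 leaves for a microRNA gene with no count), 1 with 1 CPM asked in each library (a choice made after seeing the data), 1 at a 2-fold mark, 5 at a mark of 25% higher, 0 with a minimum of 5 CPM and 8 with no filter beyond 1 count in each library. The number at least 1.5-fold lower, 0 above, was 1 at a mark of 20% lower (COL18A1) and 6 with no filter, where 33 genes enter. The number of genes expressed, 12 above, was 7 at 5 TPM, and 16 at 0.5 TPM, 10 with 1 TPM asked in both libraries, 18 by 1 CPM and 11 with GENCODE transcript lengths, the last chosen after seeing the data. The median log2 ratio was −0.12 with a minimum of 5 CPM, where fewer genes enter, and 0.13 to 0.29 otherwise. The collagen share ratio stayed between 0.858 and 0.879. All 108 single-gene values under another scaling, pseudocount or the deposited TPM lay inside the counting interval given above, and COL27A1 was the 1 gene to change sign. Depth limits the 26 genes under 1 CPM, for which a difference was mostly not detectable.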
